A study of Homo sapiens with 4 samples.

Results

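The growth factor receptor tyrosine kinases described here are 10 genes, *EGFR*, *ERBB2*, *ERBB3*, *MET*, *AXL*, *PDGFRA*, *PDGFRB*, *FGFR1*, *IGF1R* and *KDR*, which were picked by symbol from the 23228 genes listed in the count tables. All 10 had a row in every table and all 10 were among the 13546 genes that passed the filter on low counts. The cells were ES2, an established human ovarian cancer cell line grown in phenol red–free medium with charcoal-treated serum. Vehicle was given to 2 samples and 100 μM Liq (liquiritigenin, a plant flavanone used as an ERβ agonist) to 2 samples, each for 24 h, and total RNA was sequenced. The dose is that of the methods and is not in the sample labels. Nothing says that the 2 samples of a group came from separate cultures, so p-values measure the spread between these samples, which may be technical.

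A receptor tyrosine kinase spans the cell membrane. A growth factor bound outside the cell brings receptors together, and their kinase domains phosphorylate each other inside it. Adaptor proteins such as GRB2 and SHC1 then dock on the phosphorylated tails and pass the signal to RAS and ERK, to PI3K and AKT, and to phospholipase C. In ovarian cancer, receptors of this class are known for their part in growth, survival, migration and vessel formation.

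Liq-treated cells had more mRNA of *ERBB2*, *PDGFRB*, *MET*, *IGF1R* and *AXL* and less of *KDR* and *PDGFRA*, whereas *EGFR*, *FGFR1* and *ERBB3* did not pass the test. The changes of *ERBB2* (2.59-fold higher), *PDGFRB* (1.96-fold higher) and *KDR* (0.58 of vehicle) exceeded 1.5-fold, and all 3 are low-abundance transcripts in these cells. At an adjusted p-value under 0.05 from edgeR's quasi-likelihood test, 5 of the 10 genes were higher and 2 were lower with Liq, against 12.6% and 11.3% of all genes tested (24% in either direction). With a fold change of at least 1.5 as well, 2 were higher and 1 was lower, against 4.29% and 2.16% (6.45% in either direction). The same 3 passed at an unadjusted p-value under 0.05 with that fold, against 5.37% higher and 2.49% lower. Both Liq samples lay above both vehicle samples for 6 of the 10 genes and below them for 2, against 31.5% and 30.2% of all genes tested (61.7% in either direction). Without vehicle replicate 1, the calls were 4 higher and 0 lower (805 and 608 of all genes tested, compared with 1712 and 1533 when all samples were used). Without vehicle replicate 2, they were 3 higher and 1 lower (866 and 676 of all genes). The smallest p an exact permutation test can give for 1 gene in this design is 0.3333, so each call depends on a variance estimate that edgeR borrows from all genes.

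The libraries held 34573053 to 48933893 reads counted on genes. At this depth 3 counts, taken as the smallest level the tables can show, equal 0.0598 to 0.0844 CPM (read counts scaled to library size, here with TMM normalization). This limit covers counting error only. ESR1, which encodes ERα, had 17 to 34 counts per sample (adjusted p = 0.554 from edgeR). ESR2, the gene of the intended Liq receptor ERβ, had 4 and 7 counts with vehicle and 5 and 14 with Liq, and did not pass the filter. Of the epithelial markers, KRT7, KRT8, KRT18 and PAX8 were detected, while EPCAM, CDH1, KRT19 and MUC16 had 0 to 3 counts in each sample. VIM, a mesenchymal intermediate filament gene, was at 7479 ± 178 CPM in vehicle samples (SD, n = 2). Of 8 epithelial markers 4 were tested, with KRT7 called higher and KRT18 and PAX8 lower (25% and 50%). Of 6 mesenchymal markers 5 were tested, with CDH2 and COL1A1 called higher and VIM and FN1 lower (40% each way). Over all genes tested the shares were 12.6% and 11.3%. Only the KRT7 and PAX8 calls held in all 11 alternative settings, and those of COL1A1 and FN1 were lost in 5 and 6. Of 5 immune markers, PTPRC, CD3E, CD79A and CD14 had 0 to 11 counts per sample, whereas CD68, a lysosomal protein gene that is not limited to immune cells, was at 71.0 ± 4.5 CPM with vehicle and 71.9 ± 7.8 CPM with Liq (adjusted p = 0.914 from edgeR).

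The 10 receptors covered a wide range of expression. To compare genes, CPM was divided by the length of the canonical transcript in kilobases, which gives RPKM. In vehicle samples the order was *AXL* (119 ± 4 RPKM; SD, n = 2), *MET* (39.8 ± 0.4), *EGFR* (34.8 ± 1.9), *FGFR1* (27.5 ± 0.03), *PDGFRA* (14.4 ± 0.04), *IGF1R* (3.08 ± 0.03), *KDR* (0.410 ± 0.010), *ERBB2* (0.287 ± 0.009), *PDGFRB* (0.200 ± 0.018) and *ERBB3* (0.0931 ± 0.0030). No neighbours in this order overlapped between their 2 samples. In Liq samples *ERBB2* (0.749 ± 0.058 RPKM) and *PDGFRB* (0.398 ± 0.058) stood above *KDR* (0.237 ± 0.008), and the other ranks were as in vehicle. The order of close neighbours depends on the length used. With all annotated exons as the length, *PDGFRA* (9.65 RPKM) came above *FGFR1* (9.12) and *PDGFRB* (0.160) above *ERBB2* (0.127) in vehicle samples.

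**Figure D1:**
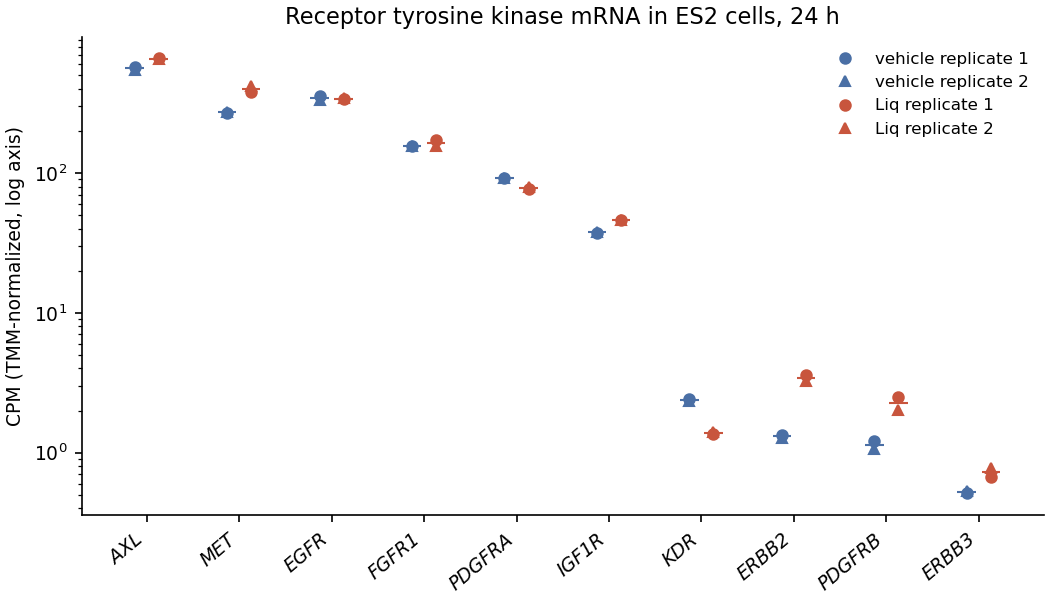
TMM-normalized CPM of the 10 receptor genes (log axis) in each of the 2 vehicle and 2 Liq samples, with short bars at the group means and genes ordered by their RPKM in vehicle. *AXL*, *MET* and *EGFR* lie at 269.7 CPM or more in every sample, and *KDR*, *ERBB2*, *PDGFRB* and *ERBB3* below 5 CPM.

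Summed over the 10 genes, receptor mRNA was 239 ± 6 RPKM in vehicle and 279 ± 2 RPKM in Liq (SD, n = 2). *AXL* made up 49.6% ± 0.6 of this pool in vehicle, and 50.4% and 49.6% in the Liq samples. The share of *MET* was 16.6% ± 0.6 and 21.1% ± 1.2, and that of *EGFR* 14.5% ± 0.4 and 12.4% ± 0.1. *PDGFRA* went from 6.04% ± 0.14 to 4.39% ± 0.09. These shares are a description and were not tested.

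**Figure D2:**
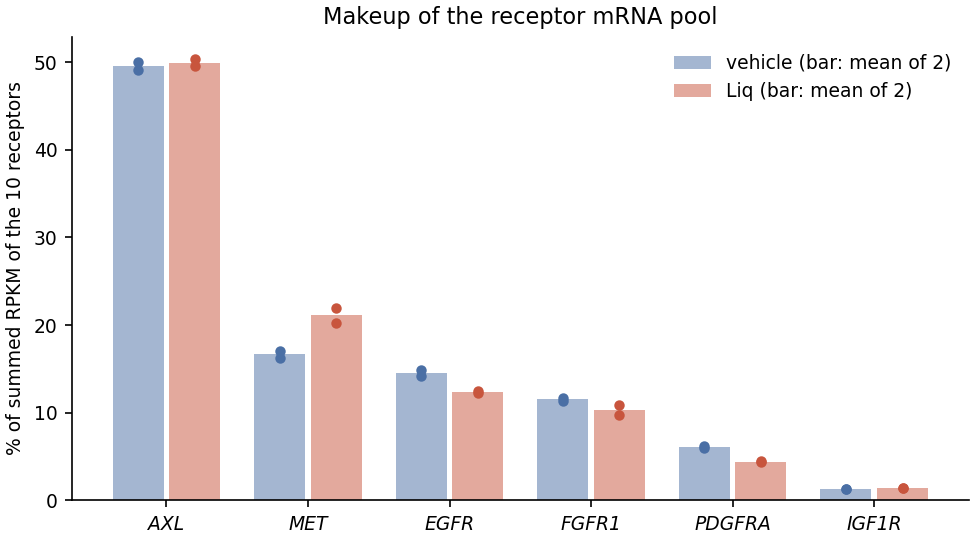
Share of each of the 6 most abundant receptors in the summed RPKM of all 10 receptors (percent), with bars at the mean of 2 samples and points for single samples. The *MET* points of Liq (20.2% or more) lie above those of vehicle (16.2% and 17.1%), whereas the *AXL* points overlap between 49.2% and 50.4%.

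Among the ERBB receptors, *EGFR*, which binds EGF, amphiregulin and epiregulin, was the abundant member. It lies on chromosome 7 from 55086710 to 55279321 (GRCh37, plus strand). *EGFR* was at 358 and 331 CPM in the vehicle samples and 337 and 345 CPM in the Liq samples. Both Liq values lay between the vehicle values. The log2 fold change was -0.01 (edgeR adjusted p = 0.902, SE 0.07), and the 95% interval of the fold change, 0.901 to 1.09, excludes a change of 1.5-fold. Over 11 alternative settings its log2 fold change ran from -0.07 to 0.07 and had no fixed sign.

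*ERBB2*, the ERBB receptor that has no known ligand of its own and serves as a partner for the others, changed most of the 10. The gene is on chromosome 17 from 37844167 to 37886679 (plus strand). Reads counted were 55 and 48 with vehicle and 128 and 162 with Liq, or 1.34 and 1.28 CPM against 3.6 and 3.23 CPM. The groups were well apart, with the lower Liq sample above both vehicle samples. *ERBB2* rose by a log2 fold change of 1.37 (edgeR adjusted p = 8.06e-06, SE 0.19), a 2.59-fold increase with a 95% interval of 1.96 to 3.41. By size of change it ranked at place 167 among the 13546 genes tested. The call held in all 11 alternatives, with log2 fold changes from 1.19 to 1.45. Exons of *PGAP3* overlap *ERBB2* on the opposite strand in the GENCODE annotation used here. How reads on the shared bases were counted is not known, since neither the strand setting nor the annotation used for counting is given. *PGAP3* itself was at 5.58 ± 0.05 and 6.93 ± 0.38 CPM (log2 fold change 0.31, adjusted p = 0.0849 from edgeR).

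*ERBB3*, whose kinase domain is nearly inactive and which signals by pairing with ERBB2, was the least abundant receptor (chromosome 12 from 56470583 to 56497289, plus strand). Its counts were 21 and 20 in vehicle and 24 and 39 in Liq, or 0.511 and 0.534 CPM against 0.675 and 0.777 CPM. Both Liq values were above the vehicle values, but the log2 fold change of 0.49 (SE 0.32) did not pass the test (adjusted p = 0.292 from edgeR). The 95% interval of the fold change, 0.883 to 2.22, includes no change.

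Of the EGFR ligands, EREG (epiregulin) fell from 45.2 ± 1.6 to 17.8 ± 1.3 CPM (SD, n = 2), or by 1.34 on the log2 scale (edgeR adjusted p = 3.22e-11, SE 0.09). HBEGF was at 119 ± 1 and 114 ± 2 CPM and did not pass the test (adjusted p = 0.529 from edgeR). EGF and BTC were below 1 CPM and did not pass either (adjusted p = 0.143 and 0.893 from edgeR). TGFA and EPGN had 0 counts in every sample, which allows at most the 3-count limit given above. AREG had 2 counts in all, but hg19 carries a near-identical copy of that gene, so its level is uncertain. The neuregulin NRG1, a ligand of ERBB3, was at 27.3 ± 0.01 and 27.7 ± 0.6 CPM (adjusted p = 0.908 from edgeR). NRG2 was at 4.06 ± 0.65 and 4.53 ± 0.47 CPM (adjusted p = 0.504).

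*MET*, the receptor of hepatocyte growth factor, had the largest change among the abundant receptors. It lies on chromosome 7 from 116312250 to 116438431 (plus strand). Expression was 270 and 274 CPM in the vehicle samples and 382 and 419 CPM in the Liq samples. Every Liq value exceeded every vehicle value by more than the distance between replicates. *MET* rose by 0.56 on the log2 scale (edgeR adjusted p = 6.82e-07, SE 0.07), which is 1.48-fold with a 95% interval of 1.34 to 1.63. The call held in all 11 alternatives, between 0.49 and 0.64, although the change is just under the 1.5-fold mark. Its ligand gene HGF had 0 counts in both vehicle samples and 1 count in each Liq sample, so both groups were below the 3-count limit.

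*AXL*, the receptor of GAS6, was the most abundant of the 10 (chromosome 19 from 41725128 to 41767671, plus strand). *AXL* was at 575 and 545 CPM in vehicle and 659 and 654 CPM in Liq. The Liq samples were both higher, by a small margin compared with *MET*. The log2 fold change was 0.23 (edgeR adjusted p = 0.00796, SE 0.06), or 1.17-fold with a 95% interval of 1.07 to 1.28. Without vehicle replicate 2 the call was lost (0.19, adjusted p = 0.188 from edgeR). GAS6 was at 99.7 ± 7.9 and 105 ± 9 CPM and did not pass the test (adjusted p = 0.554 from edgeR). Of the other receptors of the AXL family, TYRO3 had a log2 fold change of 0.20 (adjusted p = 0.0886) and MERTK one of 0.08 (adjusted p = 0.620 from edgeR), so neither passed.

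The 2 PDGF receptor genes were called in opposite directions. *PDGFRA* (chromosome 4 from 55095447 to 55164412, plus strand) was at 92.3 and 91.9 CPM in vehicle and 76.6 and 79.5 CPM in Liq. Both Liq samples were lower, and the vehicle samples were nearly equal. *PDGFRA* fell by 0.24 on the log2 scale (edgeR adjusted p = 0.0223, SE 0.08), to 0.848 of vehicle with a 95% interval of 0.761 to 0.944. This call did not hold without vehicle replicate 1 (adjusted p = 0.237), without vehicle replicate 2 (0.207) or with loess offsets along the expression level (0.0579), all from edgeR.

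*PDGFRB* (chromosome 5 from 149493402 to 149535435, minus strand) is the receptor typical of pericytes and fibroblasts and was far less abundant. It had 50 and 40 counts in vehicle and 89 and 102 in Liq, or 1.22 and 1.07 CPM against 2.50 and 2.03 CPM. Both Liq samples lay clearly above the vehicle samples. *PDGFRB* rose by 0.97 on the log2 scale (edgeR adjusted p = 0.00223, SE 0.22), a 1.96-fold increase with a 95% interval of 1.43 to 2.69. All 11 alternatives kept the call (0.78 to 1.13). Of 4 pericyte and smooth muscle markers, 3 were tested and all 3 rose (12.6% of all genes tested rose), with log2 fold changes of 0.85 for ACTA2, 0.76 for CSPG4 and 0.58 for RGS5, while DES had 0 or 1 count. Their summed level was 21.7 to 23.2 CPM in vehicle and 36.8 to 37.2 CPM in Liq, and their part in the *PDGFRB* result was not tested. In bulk RNA, more cells that express a gene and more RNA per cell cannot be told apart.

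PDGF ligands were also called in both directions. PDGFA fell from 35.3 ± 0.8 to 23.8 ± 2.6 CPM (log2 fold change -0.57, adjusted p = 6.87e-05 from edgeR), and PDGFB from 2.26 ± 0.24 to 1.41 ± 0.17 CPM (-0.66, adjusted p = 0.0230). PDGFD, a ligand of the β receptor, rose from 4.08 ± 0.43 to 6.09 ± 0.58 CPM (0.59, adjusted p = 0.00375 from edgeR). PDGFC, the most abundant of the 4, was at 111 ± 2 and 103 ± 11 CPM and did not pass (adjusted p = 0.350). The PDGFB call was lost without vehicle replicate 1 (adjusted p = 0.0532), vehicle replicate 2 (0.210) or Liq replicate 1 (0.0809) and with DESeq2 (0.151), and that of PDGFD without vehicle replicate 1 (0.0938).

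*FGFR1*, a receptor of fibroblast growth factors, is on chromosome 8 from 38257733 to 38326352 (minus strand). It was at 157 and 157 CPM in vehicle and 171 and 156 CPM in Liq. The groups overlapped. The log2 fold change was 0.06 (edgeR adjusted p = 0.608, SE 0.07), and the 95% interval of the fold change was 0.938 to 1.15. Exons of LETM2 overlap *FGFR1* on the opposite strand, and LETM2 fell from 28.4 ± 0.5 to 13.8 ± 0.1 CPM (log2 fold change -1.04, adjusted p = 7.15e-09 from edgeR). The same limit on shared bases applies to this pair. Among its ligands, FGF1 fell from 8.95 ± 0.72 to 2.77 ± 0.30 CPM (-1.68, adjusted p = 1.56e-09) and FGF5 from 188 ± 11 to 147 ± 11 CPM (-0.36, adjusted p = 0.000991, but 0.0732 without vehicle replicate 2, all from edgeR). FGF2 was at 30.2 ± 2.1 and 34.1 ± 5.0 CPM and did not pass (adjusted p = 0.206).

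*IGF1R*, which binds the insulin-like growth factors and promotes survival, lies on chromosome 15 from 99191768 to 99507759 (plus strand). *IGF1R* was at 37.5 and 38.0 CPM in vehicle and 45.9 and 45.8 CPM in Liq. Replicates were nearly equal in both groups, and the groups were apart. It rose by 0.28 on the log2 scale (edgeR adjusted p = 0.0155, SE 0.08), or 1.22-fold with a 95% interval of 1.08 to 1.37. The call was lost without vehicle replicate 1 (adjusted p = 0.208) or vehicle replicate 2 (adjusted p = 0.155 from edgeR). IGF1 and IGF2 had 0 counts in all samples, and the IGF2 count is uncertain because INS-IGF2 covers the same locus. IRS1 and IRS2, the adaptors that dock on this receptor, rose by 0.27 and 0.38 (adjusted p = 0.00490 and 0.00493 from edgeR). Without vehicle replicate 1 or 2 neither call held (adjusted p = 0.0971 and 0.116 for IRS1, 0.0914 and 0.0549 for IRS2).

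*KDR*, which encodes VEGF receptor 2 and is best known from endothelial cells, was the receptor that fell most (chromosome 4 from 55944648 to 55991762, minus strand). It had 100 and 88 counts in vehicle and 48 and 71 in Liq, or 2.43 and 2.35 CPM against 1.35 and 1.41 CPM. Both Liq samples were lower, and the spread within each group was small. *KDR* fell by 0.79 on the log2 scale (edgeR adjusted p = 0.00603, SE 0.20), to 0.580 of vehicle with a 95% interval of 0.434 to 0.776. The adjusted p-value was 0.0601 without vehicle replicate 1 and 0.0702 with the DESeq2 Wald test. VEGFA was at 138 ± 5 and 121 ± 16 CPM (adjusted p = 0.0803) and VEGFC at 61.8 ± 0.3 and 67.3 ± 4.7 CPM (adjusted p = 0.284 from edgeR), so neither passed.

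Endothelial markers were examined beside *KDR*. Of the 6, PECAM1, VWF, TEK and FLT1 had 0 to 10 counts per sample and were not tested, whereas TIE1 and CDH5 were well expressed. The TIE1 level was 327 ± 24 CPM with vehicle and 280 ± 19 CPM with Liq (log2 fold change -0.22, adjusted p = 0.0227 from edgeR). That call was lost without vehicle replicate 1 (adjusted p = 0.437), without Liq replicate 2 (0.113), with upper-quartile normalization (0.0538) and with loess offsets (0.154). CDH5 was at 51.8 ± 1.6 and 46.4 ± 2.5 CPM (adjusted p = 0.167 from edgeR). The summed level of the 6 markers was 361 to 398 CPM in vehicle and 311 to 342 CPM in Liq, and their part in the *KDR* result was not tested.

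**Figure D3:**
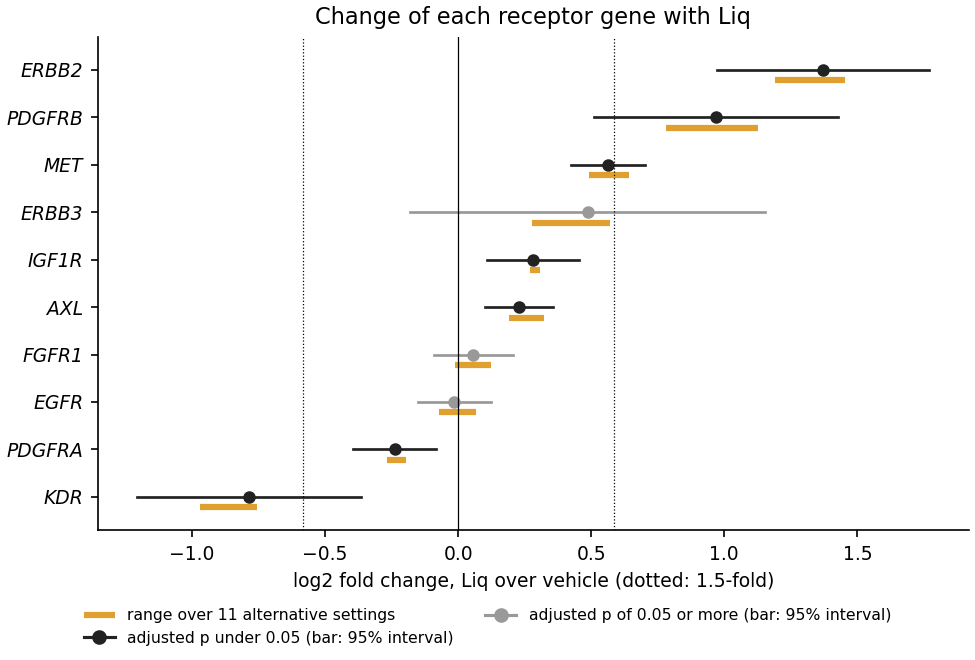
Log2 fold change of each receptor gene (Liq over vehicle, n = 2 per group), with the 95% interval as a thin bar and the range over 11 alternative settings as a thick bar. *ERBB2*, *PDGFRB* and *KDR* lie beyond the dotted 1.5-fold lines, and the intervals of *EGFR*, *FGFR1* and *ERBB3* include 0.

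The receptors were also set beside genes of like abundance. The 4 receptors under 5 CPM held all 3 changes beyond 1.5-fold, and the 6 receptors over 30 CPM held 0. Among all 2961 tested genes under 5 CPM, 13% were called higher and 4.19% called lower beyond 1.5-fold, and the median log2 fold change was 0.21. The shares were 2.87% and 1.89% for genes from 5 to 50 CPM, the range of *IGF1R*, and 0.65% and 1.15% from 50 to 500 CPM, the range of *EGFR*, *MET*, *FGFR1* and *PDGFRA*. Over 500 CPM, the range of *AXL*, they were 1.17% and 3.12%. The medians of these 3 ranges were 0.03, -0.05 and -0.08. Loess offsets level the average trend with abundance and not the spread around it. With these offsets the log2 fold change was 1.19 for *ERBB2*, 0.78 for *PDGFRB* and -0.97 for *KDR*. The values without them were 1.37, 0.97 and -0.79. All 3 genes passed with the offsets (adjusted p = 9.38e-05, 0.0133 and 0.00132 from edgeR). The part of low abundance in these 3 calls was not tested.

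A RefSeq promoter window is shown for each of the 3 receptors that changed beyond 1.5-fold, so that marked motifs can be compared. Each runs from 250 bases before to 50 bases after an annotated start site (GRCh38.p14, 5′ to 3′ on the gene strand). Capitals mark GGGCGG, the GC box bound by SP1, and CCGGAAG, an ETS core motif, each on either strand. The *ERBB2* window is chr17:39687844-39688143 (plus strand), the *PDGFRB* window chr5:150155796-150156095 (minus strand) and the *KDR* window chr4:55125546-55125845 (minus strand).
ERBB2: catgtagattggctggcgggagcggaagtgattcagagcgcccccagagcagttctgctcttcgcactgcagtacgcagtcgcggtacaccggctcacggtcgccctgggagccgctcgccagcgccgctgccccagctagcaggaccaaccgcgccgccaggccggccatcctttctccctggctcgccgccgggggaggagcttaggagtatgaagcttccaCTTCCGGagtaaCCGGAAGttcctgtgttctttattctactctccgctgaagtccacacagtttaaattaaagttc
PDGFRB: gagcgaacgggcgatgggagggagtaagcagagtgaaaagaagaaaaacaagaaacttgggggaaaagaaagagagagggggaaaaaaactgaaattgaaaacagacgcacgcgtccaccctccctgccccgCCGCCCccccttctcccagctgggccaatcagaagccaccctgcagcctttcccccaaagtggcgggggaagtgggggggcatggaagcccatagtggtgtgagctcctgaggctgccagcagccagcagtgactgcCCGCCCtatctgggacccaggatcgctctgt
KDR: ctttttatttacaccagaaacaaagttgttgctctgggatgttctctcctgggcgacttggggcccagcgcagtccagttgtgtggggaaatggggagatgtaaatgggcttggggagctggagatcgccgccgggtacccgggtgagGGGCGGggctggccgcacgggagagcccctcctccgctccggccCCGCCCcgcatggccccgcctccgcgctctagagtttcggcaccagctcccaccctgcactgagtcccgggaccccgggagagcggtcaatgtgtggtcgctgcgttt

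The *ERBB2* window held 2 copies of the ETS core on opposite strands, at 26 and 14 bases before the start site, and no GC box. Which start site of *ERBB2* these cells use is not known. *PGAP3* overlaps *ERBB2* on the opposite strand, so motifs in this window cannot be assigned to *ERBB2* alone. *PDGFRB* and *KDR* held 2 GC boxes each and no ETS core. RefSeq windows were matched for 8 of the 10 receptors, 11 in all. A GC box was present in 7 of the 11 windows and in 45.0% of all 35116 promoters, and an ETS core in 1 of the 11 and in 10.3% of all. The full estrogen response element, the single AGGTCA motif within it and the NF-κB motif were found in 0 of the 11 windows and in 0.0570%, 13.8% and 0.191% of all promoters. An AP-1 motif (TGANTCA) was present in 3 windows, including that of *ERBB2*, against 7.71% of all promoters. The GC content of the 11 windows ran from 42% to 79.7%, with a median of 58.7% over all promoters. A match is a description of the letters and not a binding site.

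Several receptor genes lie in clusters of related genes, so neighbours within 500 kb were examined, an addition made after the values had been seen. Only the 11560 of 13546 tested genes whose symbol matched the annotation could be found, so the neighbours given here may be incomplete. *PDGFRA*, KIT and *KDR* follow each other on chromosome 4. KIT, the receptor of stem cell factor, whose start site is 428 kb from that of *PDGFRA*, had 16 and 11 counts in vehicle and 32 and 37 in Liq. It rose by 1.23 on the log2 scale (edgeR adjusted p = 0.0126, SE 0.35), while the genes on either side of it fell. On chromosome 5, CSF1R, the receptor of colony stimulating factor 1, starts 42 kb beyond the start of *PDGFRB* on the same strand. It had 36 and 27 counts in vehicle and 12 and 15 in Liq, and fell by 1.34 (edgeR adjusted p = 0.00735, SE 0.36), while *PDGFRB* rose. Both calls rest on few reads. For KIT the adjusted p-value was 0.0566 without vehicle replicate 1, 0.151 without vehicle replicate 2, 0.0570 without Liq replicate 1 and 0.134 with DESeq2, and for CSF1R it was 0.136 without vehicle replicate 1 and 0.108 with DESeq2.

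Around *ERBB2*, 17 neighbours were tested, of which 2 rose and 5 fell. Their log2 fold changes ran from -1.52 for CSF3, 327 kb away, to 0.63 for GSDMB, 232 kb away, and *ERBB2* at 1.37 was above all of them. Around *MET*, 6 neighbours were tested and 2 rose, TES by 0.58 and CAV2 by 0.31 (adjusted p = 0.00236 and 0.00401 from edgeR). CAPZA2, the nearest of these 6 at 139 kb, had a log2 fold change of -0.12 (adjusted p = 0.251 from edgeR). Over the windows of all 10 receptors, 11 of 93 neighbours rose and 16 fell, against 12.6% and 11.3% of all genes tested.

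**Figure D4:**
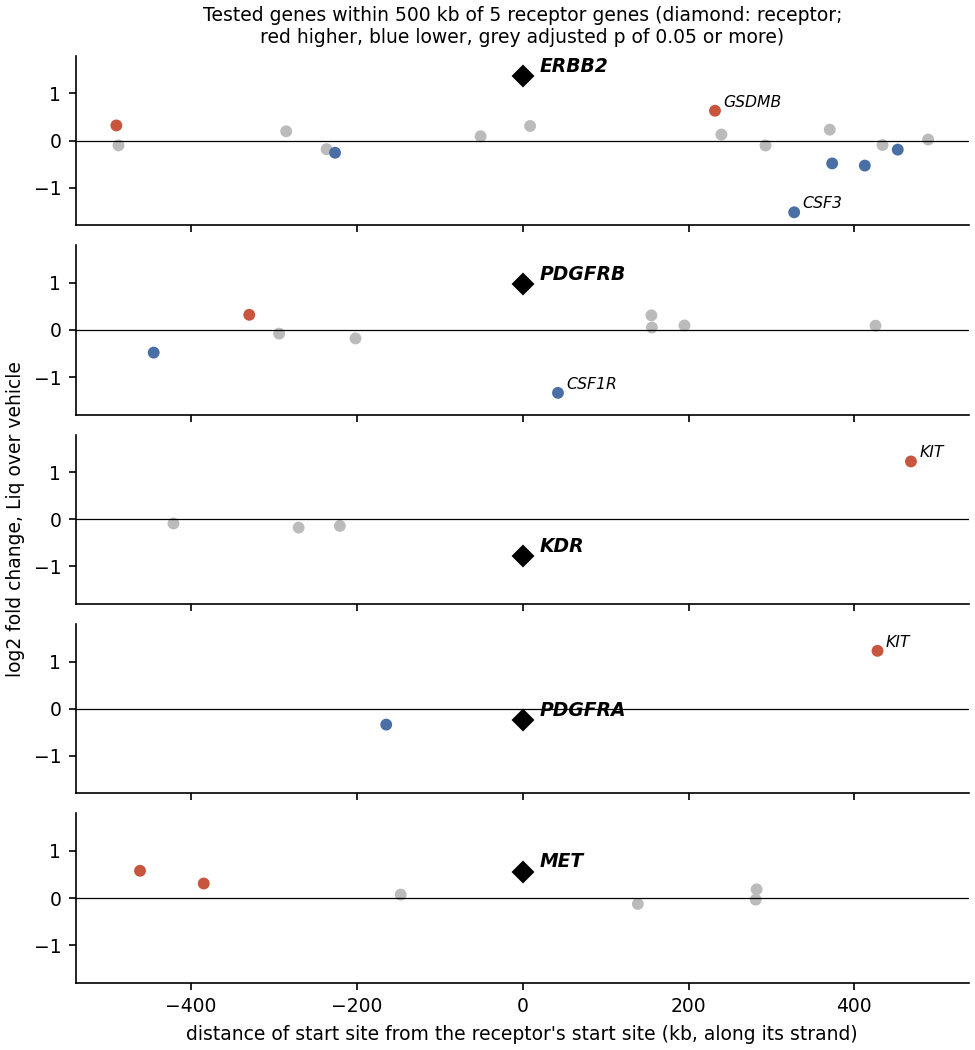
Log2 fold change (Liq over vehicle) of tested genes against the distance of their start site from that of the receptor (kb, along the receptor's strand), for 5 receptors, with the receptor as a diamond at 0. *ERBB2* lies above the 17 neighbours found, and KIT and CSF1R lie on the opposite side of 0 from *KDR*, *PDGFRA* and *PDGFRB*.

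Of 35 other receptor tyrosine kinases, 18 were tested, 4 rose and 2 fell (22.2% and 11.1%, against 12.6% and 11.3% of all genes tested), with a median log2 fold change of 0.15 (0.26 over the 10 receptors and 0.01 over all genes tested). The list left out the Eph receptors, which are also receptor tyrosine kinases, so these shares do not cover them. EPHA2 and EPHA4 were counted with the transcriptional output genes below, and both were called lower. With loess offsets the EPHA2 call was lost (adjusted p = 0.145 from edgeR). The changes of KIT, FGFR4 (both higher) and CSF1R (lower) were beyond 1.5-fold, against 4.29% higher and 2.16% lower of all genes tested. FGFR4, a fibroblast growth factor receptor, had 14 and 9 counts in vehicle and 27 and 40 in Liq (log2 fold change 1.41, adjusted p = 0.00629 from edgeR, but 0.111 without vehicle replicate 2 and 0.0985 with DESeq2). ROR1 and PTK7, both with Wnt-linked functions, rose by 0.57 and 0.26 (adjusted p = 0.0356 and 0.0401 from edgeR). Neither call held with loess offsets (0.164 and 0.0534), with DESeq2 (0.202 and 0.0750), without vehicle replicate 1 (0.140 and 0.167) or 2 (0.205 and 0.341), or without Liq replicate 1 (0.124 and 0.173). Among untested members, INSR had 0 to 4 counts in each sample.

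Of 32 listed ligands, 19 were tested, 1 rose and 5 fell (5.26% and 26.3%, against 12.6% and 11.3% of all genes tested), with a median log2 fold change of -0.08. The ligand that rose was PDGFD, and those that fell were EREG, FGF1, PDGFA, FGF5 and PDGFB. Their values stand beside their receptors above.

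Coreceptors and binding proteins moved in both directions, 6 of 16 tested genes upward and 4 downward (37.5% and 25%, against 12.6% and 11.3% of all genes tested). IGFBP1, a secreted protein that binds insulin-like growth factors, fell from 5.36 ± 0.33 to 1.35 ± 0.04 CPM (0.251 of vehicle, adjusted p = 2.71e-09 from edgeR). GPC1, a heparan sulfate proteoglycan that presents fibroblast growth factors, rose from 5.00 ± 0.03 to 11.3 ± 1.0 CPM (1.17, adjusted p = 8.23e-08). IGFBP7 rose by 0.61 (adjusted p = 0.000183), and the tetraspanin CD82 fell by 0.65 (adjusted p = 2.92e-05 from edgeR). Of the neuropilins, which assist VEGF receptors, NRP2 rose by 0.43 (adjusted p = 0.000123) and NRP1 had a log2 fold change of 0.13 that did not pass (adjusted p = 0.158 from edgeR).

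Of 46 tested adaptors and signal transducers 5 rose and 4 fell (10.9% and 8.70%, against 12.6% and 11.3% of all genes tested), with a median of -0.05, and 1 change was beyond 1.5-fold. That gene was SHC2, which rose from 0.617 ± 0.185 to 1.23 ± 0.41 CPM (log2 fold change 0.96, adjusted p = 0.0255 from edgeR). Its call was lost without vehicle replicate 1 (adjusted p = 0.290), without Liq replicate 1 (0.235), with loess offsets (0.0844) and with DESeq2 (0.160). SHC1, the widely used member of that family, fell by 0.27 (adjusted p = 0.00398, but 0.123 without vehicle replicate 1), and GRB10, which binds insulin-type receptors, rose by 0.37 (adjusted p = 0.000581 from edgeR).

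A list of receptor inhibitors, ubiquitin ligases and phosphatases, with trafficking and shedding genes, had 33 tested genes, and not all of them limit receptor signals. Of these genes, 2 rose and 9 fell (6.06% and 27.3%, against 12.6% and 11.3% of all genes tested), with a median of -0.08. PTPRJ, a phosphatase that acts on several of these receptors, rose from 28.5 ± 1.8 to 46.8 ± 2.1 CPM (log2 fold change 0.72, adjusted p = 1.09e-06 from edgeR). ADAM17 was the other gene that rose, and it releases EGFR ligands rather than limiting receptor signals. Its log2 fold change ran from 0.22 to 0.35 over 11 alternative settings. PTPRB, the vascular endothelial phosphatase, fell from 32.4 ± 0.3 to 21.4 ± 0.5 CPM (-0.60, adjusted p = 2.43e-05). ERRFI1, an inhibitor that binds EGFR directly, fell by 0.29, under 1.5-fold (adjusted p = 0.00150 from edgeR, but 0.0630 without vehicle replicate 2).

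The genes that receptor signals switch on through ERK were mostly lower. Of 22 such genes, all tested, 15 fell and 0 rose (68.2% and 0%, against 11.3% and 12.6% of all genes tested), with a median log2 fold change of -0.43 (0.01 over all genes tested). In the DESeq2 Wald test 15 fell and 0 rose as well. EGR1, an early growth response factor, fell from 127 ± 9 to 32.9 ± 2.1 CPM (log2 fold change -1.95, adjusted p = 1.83e-15 from edgeR). DUSP6, the ERK phosphatase, fell from 398 ± 9 to 214 ± 3 CPM (-0.90, adjusted p = 1.23e-10), and SPRY4, another feedback inhibitor, from 152 ± 3 to 85.4 ± 4.1 CPM (-0.84, adjusted p = 3.31e-09). EPHA4, IER3, JUNB, IER2 and ETV4 also fell by more than 1.5-fold, with log2 fold changes of -0.98, -0.91, -0.86, -0.60 and -0.60. EPHA4 is itself a receptor tyrosine kinase. CCND1 and FOSL1 were at 0.03 and -0.12 and did not pass (adjusted p = 0.726 and 0.212 from edgeR). This list was written with earlier results of these data known, so its count is not independent evidence of a direction.

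**Figure D5:**
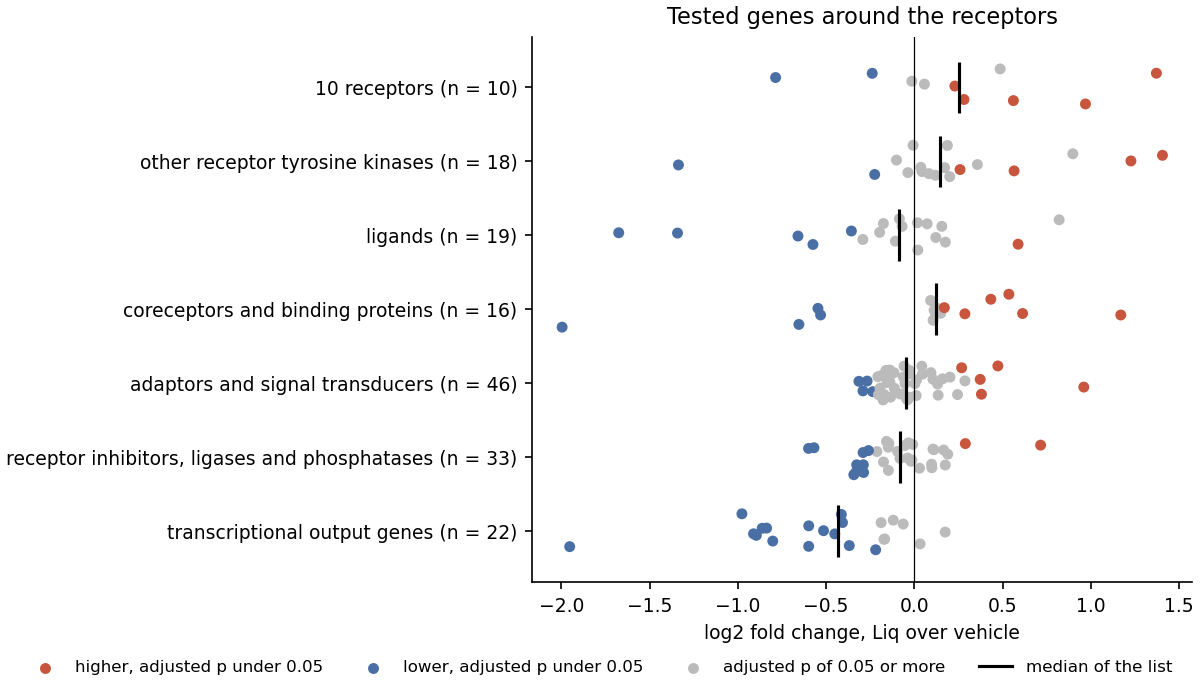
Log2 fold change (Liq over vehicle) of every tested gene in the 10 receptors and 6 lists around them, coloured by direction and adjusted p-value, with a vertical bar at the median of each list. Points of the transcriptional output genes lie mostly left of 0 with a median of -0.43, whereas the median of the receptors is 0.26.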

How the data were processed

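Total RNA from ES2 cells (2 vehicle and 2 Liq samples, 24 h) was sequenced as 100 bp single-end reads. Per the labels, the authors demultiplexed with bcl2fastq 2.17.1.14, aligned to hg19 with TopHat2 2.0.8b and counted with HTSeq. The strand setting and the version of the gene annotation are not given in the sources used here. They deposited raw counts per gene, which exclude reads with several alignments (35.6% to 36.2% of reads tallied) or on 2 genes at once (0.544% to 0.557%).

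The analysis used edgeR 4.0.16 under R 4.3.3. Genes kept by filterByExpr (minimum count 10, minimum total 15) were normalized by TMM and compared with the quasi-likelihood test (glmQLFit, glmQLFTest) with no block for replicate, followed by Benjamini-Hochberg adjustment over 13546 genes. A gene was called at an adjusted p-value under 0.05, and counted again at 1.5-fold, the fold of the study. The SE was the log2 fold change divided by the square root of F. Coordinates and transcript lengths are from GENCODE v44lift37 on GRCh37, which is the sequence of hg19, and promoters from RefSeq on GRCh38.p14. In simulated data for this comparison with 200 genes changed 2-fold among 13451, edgeR recovered 199 and DESeq2 191. False calls were 9 with edgeR and 3 with DESeq2. Recovery at low counts was not tested separately.

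Members and lists were chosen with earlier results of these data known. Named were all 10 receptors and the ligands described with them, ESR1, ESR2, and in each list the genes called beyond 1.5-fold, at most 8 by smallest p-value; PGAP3, LETM2, TIE1, INSR, the marker genes, the other neighbours and the list genes named with smaller changes or none were chosen after their values were seen. Alternatives were other normalizations (DESeq2 size factors, upper quartile, loess offsets with a span of 0.3), other filters, the DESeq2 1.42.0 Wald test, the replicate block, leaving out each sample in turn (a lone sample was assumed to vary like the other group) and other thresholds.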

Additional observations from a re-analysis of the deposited data

How the results depend on the processing

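Directions of the 7 called receptors were the same in all 11 alternative fits, and *ERBB2*, *MET* and *PDGFRB* passed in every one. The 5 upward calls were kept with DESeq2 size factors, upper-quartile normalization, loess offsets, other filters, DESeq2 and the replicate block. Downward calls went from 2 to 1 with loess offsets and with the DESeq2 Wald test. Leaving out 1 sample gave 3 to 5 upward and 0 to 2 downward receptor calls, and 805 to 1966 upward and 608 to 1814 downward calls over all genes. At 1.5-fold, receptor calls were 2 upward and 1 downward with adjusted or unadjusted p-values, and calls over all genes were 581 and 293 (adjusted) or 727 and 337 (unadjusted). Over all genes DESeq2 gave 1086 upward calls and the replicate block 2474 downward calls. The deviations of samples with the same replicate number had a correlation of 0.13 across genes, so with 2 pairs the numbers are not shown to pair the samples, and under the block 5 receptors were higher and 2 lower as before. Of the lists, with loess offsets 1 other receptor tyrosine kinase was lower, 5 inhibitors and phosphatases and 1 transcriptional output gene were higher, and with DESeq2 0 other receptor tyrosine kinases and 3 adaptors were higher and 1 other receptor tyrosine kinase was lower. The cause of these differences was not tested. *ERBB3*, with 20 to 39 counts per sample, had the fewest reads and the largest SE of the receptors.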
